A study of Parhyale hawaiensis with 42 samples.

Results

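The longest messenger RNAs of the *Parhyale hawaiensis* embryo were followed through development. Transcripts were chosen by length alone, as the Trinity transcripts of 15000 bases or more in the deposited transcriptome, and the reads on them were summed for each Trinity gene. A Trinity gene is a group of assembled transcripts that the assembler Trinity placed in 1 locus. The rule gave 166 transcripts in 73 genes, out of 53604 transcripts in 31153 genes. No expression value was used to choose them. The transcripts had, however, been assembled by the authors from the reads of these developmental libraries. Membership is therefore not independent of expression. The 2 transcripts just inside the limit were both of 15030 bases, and the 2 just outside it were of 14985 and 14979 bases. The genes are given by their Trinity identifiers, which were not paired with gene names or sequences in the sources used here.

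*Parhyale hawaiensis* is an amphipod crustacean whose females carry their embryos in a brood pouch, from which staged embryos can be collected. All samples were pooled whole embryos of the wild-type laboratory strain, untreated and kept in sea water. Poly-A selected mRNA was sequenced at 7 time-points, with 2 libraries for each, named by embryonic stage. S1–4 and S5–6 are the earliest, S7–11, S14, S17 and S21–23 come in order after them, and S24–30 is the last before hatching. The labels give slightly narrower stage ranges for S5–6 and S7–11 and mark the S1–4 mRNA libraries as small RNA, although their files hold mRNA transcripts like the others. Since whole embryos were used, a change in the number of cells of a type and a change in the RNA of each cell cannot be told apart.

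An animal egg holds mRNAs laid down by the mother, and the embryo lives on these until its own genome is switched on. Maternal mRNAs are then cleared while zygotic ones accumulate, in a change known as the maternal-to-zygotic transition. Well-known examples of very long mRNAs in animals encode giant proteins of muscle, the cytoskeleton and the extracellular matrix. A long transcription unit takes long to copy, and in *Drosophila* the short cell cycles of the early embryo are known to limit which long genes can be transcribed to their end. The length used here is that of the assembled mRNA. Introns, which decide the length of the transcription unit, were not used here.

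Depth allowed every member to be measured. The libraries held 41354642 to 64892281 counts, and the transcripts of 15000 bases or more took 0.563% to 1.33% of them. All 73 genes passed the filter of a mean of at least 10 normalized counts at 1 or more time-points. The least covered gene had 9840 counts over the 14 libraries. Since the transcripts were assembled from these reads, passing the filter was not independent of the choice of members. The longest transcript had 26051 bases, and the median of the longest transcript of each gene was 16466 bases. In TPM, an abundance scaled to the library total and corrected for transcript length, the mean levels of the genes ran from 0.930 to 19.0 with a median of 5.37, between percentile 21.3 and percentile 81.6 of all features tested. The members were therefore genes of middling level. In 30 genes a single transcript reached 15000 bases, in 43 genes 2 or more did, and TRINITY_GG_85227_c0_g1 had the most with 10. Shorter transcripts were also assembled for 34 of the genes, while 39 had none.

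The quantification set a limit on all that follows. The authors' program, salmon, divides reads that fit several transcripts of a gene among them. In TRINITY_GG_85227_c0_g1, 6 transcripts of the same length of 18726 bases received the same or nearly the same estimate in several libraries, as in replicate 1 of S17 with 1289 reads on each. In other genes the division was all or nothing. Across the transcriptome, 546 transcripts stood above 5 CPM (counts scaled to the library total) in all 4 libraries of S1–4 and S5–6 and were listed at exactly 0 in all 10 later libraries. Of these, 8 were the sole transcript of their gene, whereas 34.9% of all transcripts that passed 5 CPM in any library were sole transcripts. Between the replicates of a time-point, 424 to 654 transcripts were above 5 CPM in 1 library and at 0 in the other, at most 21 of them sole transcripts. Among the members, 10 long and 14 shorter transcripts of 17 genes went to 0 after S5–6 in this way. Values for the long transcripts of the 39 members without shorter transcripts do not depend on such a division between long and shorter. For the other 34, the value of the whole gene is given where it changes the account.

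The part of the mRNA pool made up by very long transcripts was high at S5–6 and at S24–30. Their summed TPM was 443.5 and 461.1 in the libraries of S1–4 and 888.0 and 912.0 at S5–6. It was 373.7 and 382.4 at S7–11, 334.1 and 345.4 at S14, 260.0 and 268.6 at S17, and 309.6 and 314.8 at S21–23. At S24–30 it was 729.6 and 752.5. The time-points did not overlap in any library, so that each was apart from its neighbours by more than the spread of its replicates. The mean at S5–6 was 1.99 times that at S1–4, and the mean at S24–30 was 2.37 times that at S21–23. As a percentage of all counts, which does not correct for length, the ratios were 1.63 and 1.88.

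**Figure D1:**
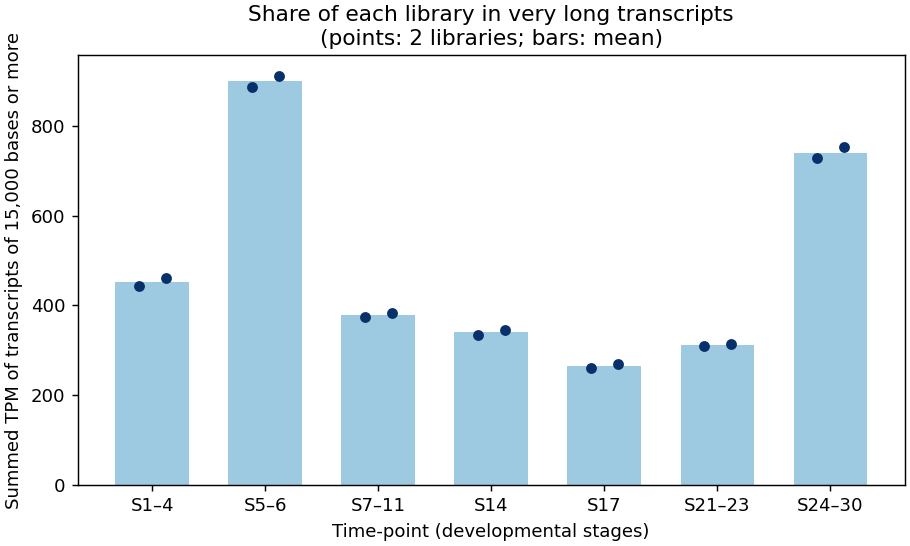
Summed TPM of all transcripts of 15000 bases or more (y axis) at each time-point (x axis). Points are the 2 libraries and bars their mean. S5–6 (mean 900.0) and S24–30 (mean 741.0) stand above the other 5 time-points, whose means run from 264.3 to 452.3.

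No small set of genes held most of the members' summed TPM at any time-point. The 5 leading members of each time-point held 20.9% to 25.3% of the members' summed TPM, and the highest single gene 5.16% to 5.84%. At S5–6 the leading gene was TRINITY_GG_48674_c0_g1 with 51.4 ± 2.2 TPM (SD, n = 2), followed by TRINITY_GG_47724_c0_g1 with 48.1 ± 2.7 TPM. At S14, S17 and S21–23 it was TRINITY_GG_7746_c0_g1, with 18.3 ± 0.31, 14.5 ± 0.33 and 16.8 ± 0.76 TPM. At S24–30 the leading genes were TRINITY_GG_100505_c0_g1 with 43.3 ± 1.5 TPM and TRINITY_GG_26338_c0_g1 with 42.3 ± 0.98 TPM. TRINITY_GG_47724_c0_g1 is named here after its values were seen.

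Nearly every member changed over development. By the F-test of edgeR over the 7 time-points, 71 of the 73 had an adjusted p of at most 0.001, beside 69.1% of all 33133 features tested. A feature is the set of transcripts of 1 gene in 1 of 6 length classes. Of 365 shorter features matched to the members on TPM, described below, 95.1% changed, so that the members' share is close to that of features of like level. The highest time-point mean of a member was 1.67 to 7308 times its lowest, with a median of 5.79. This median was below those of all features (23.4), of the features matched on TPM (13.2) and of the length class just under the members (6.56). The highest mean was at least 2 times the lowest in 68 members and at least 10 times in 20. No shares over all features are given for these counts. In 69 of the 73 genes both libraries of the highest time-point stood above the other 12, beside 72.1% of all features.

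The 2 genes that missed the threshold were TRINITY_GG_89743_c0_g1 with an adjusted p of 0.00295 and TRINITY_GG_81561_c2_g1. TRINITY_GG_81561_c2_g1 was at 246.0 and 223.6 CPM at S5–6 and declined to 13.5 CPM in replicate 1 of S24–30, while replicate 2 was listed at 0. In that last library all 655 reads of the gene stood on its shorter transcripts, where the other library had 784 reads on the long one and 45 on the shorter. It is named after its values were seen. Levels of a single gene are given as CPM after TMM scaling, a unit that serves to compare time-points within a gene and not genes with each other.

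The members fell into an early and a late group with few between. In CPM after TMM scaling, the mean was highest at S5–6 in 27 genes (37.0%) and at S24–30 in 32 (43.8%). Of all features, 21.9% were highest at S5–6 and 25.6% at S24–30. In the length class just under the members these shares were 36.3% and 32.5%, so most of the S5–6 share was also seen there. S7–11 and S14 had 5 genes each, S21–23 had 2, and S1–4 and S17 had 1 each. The lowest mean, in CPM after TMM scaling, stood at S1–4 in 29 genes (39.7%). It stood there in 26.7% of all features and in 37.3% of the length class just under the members. The lowest time-point of a gene could depend on the scale. In TPM, TRINITY_GG_7746_c0_g1 was lowest at S17 (mean 14.5, beside 22.4 at S1–4), while TRINITY_GG_141470_c0_g1 stayed lowest at S1–4 (2.55). Lowest time-points in TPM were not counted. In 17 genes the levels at S5–6 and S24–30 were both above those of the 4 time-points between. No share over all features is given for this count. The same pattern of highs was seen in the 39 members without shorter transcripts, with 13 highest at S5–6, 19 at S24–30, 6 from S7–11 to S21–23 and 1 at S1–4. With all transcripts of each of the 73 genes summed, 30 genes were highest at S5–6, 30 at S24–30, 10 between and 3 at S1–4.

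**Figure D2:**
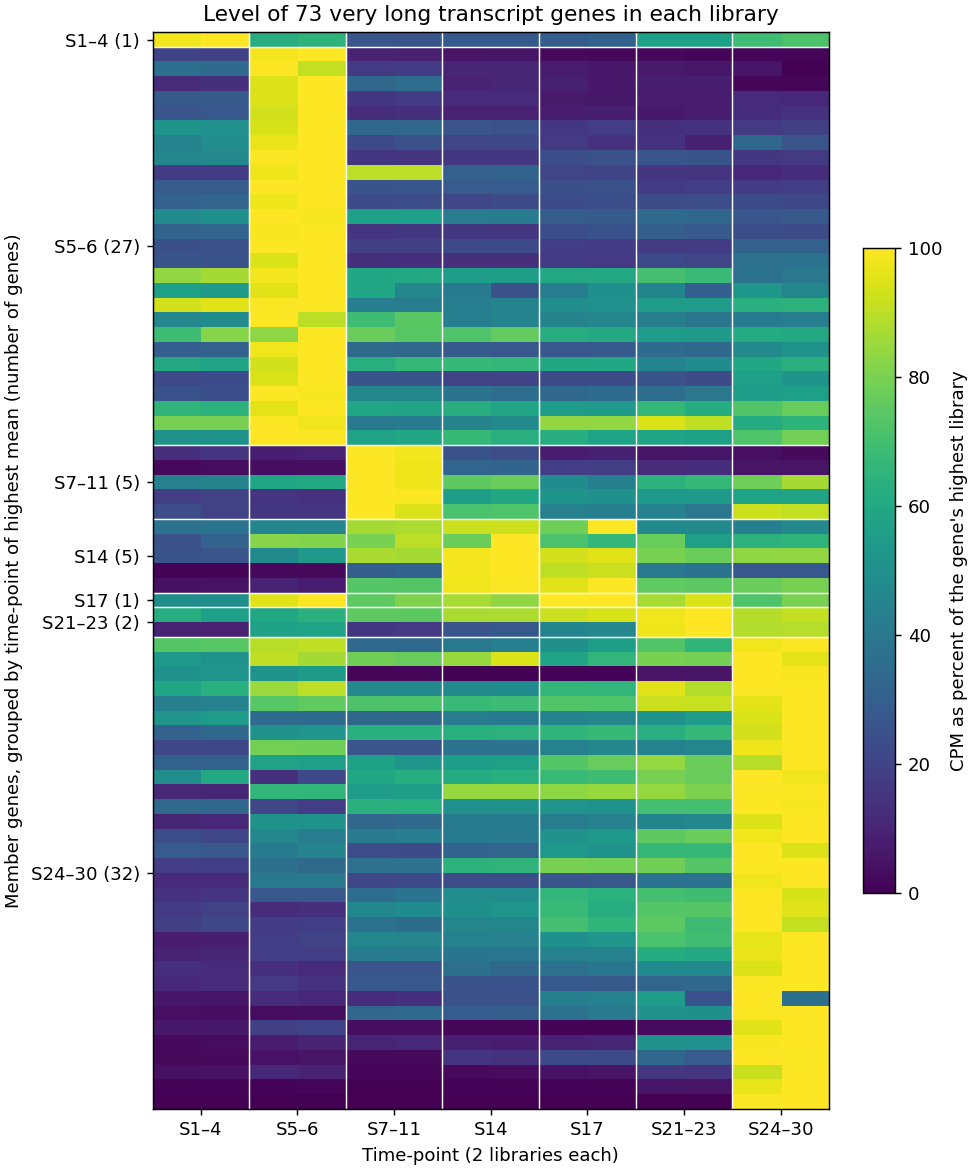
Level of each of the 73 member genes (rows) in each of the 14 libraries (columns, 2 for each time-point), as a percentage of the gene's highest library on the CPM scale. Rows are grouped by the time-point of the highest mean, with the number of genes beside each group. The blocks at S5–6 (27 genes) and S24–30 (32 genes) hold most rows.

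The group highest at S5–6 had a level there that was a median of 3.44 times the mean of its other time-points. In all 27 of these genes both S5–6 libraries were above the other 12, a property used to form the group in part. Their longest transcripts ran from 15041 to 26051 bases. The group highest at S24–30 stood at a median of 2.35 times the mean of its other time-points, and its longest transcripts ran from 15055 to 25764 bases. In 31 of its 32 genes both S24–30 libraries were above the others. The exception, named after its values were seen, was TRINITY_GG_102849_c1_g1 with 215.6 and 79.3 CPM at S24–30. Its shorter transcripts were listed at 0 in the first of these libraries and at 7114 reads in the second. The 5 genes highest at S7–11 stood at a median of 2.35 times the mean of their other time-points, with both libraries on top in each. Those highest at S14 stood at 1.57 times, and in 2 of 5 both S14 libraries were on top.

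Comparison with shorter transcripts depended on how these were matched. For each member, 5 features of 1000 to 3000 bases with the nearest mean TPM were taken, 365 in all. Of these, 30.7% were highest at S1–4, 23.8% at S5–6 and 16.4% at S24–30, beside 1.37%, 37.0% and 43.8% of the members. The timing centre, the mean time-point number from 1 to 7 weighted by level, had a median of 4.22 over members and 3.60 over these features, a difference of 0.62 (0.65 and 0.62 from replicates 1 and 2 alone). A long transcript gives more reads than a short one of the same TPM. When the 365 features were instead matched on read counts, the difference was 0.08, and 11.2% of the features were highest at S1–4, 27.4% at S5–6, 51.5% from S7–11 to S21–23 and 9.86% at S24–30. Of the members 17.8% were highest from S7–11 to S21–23. The difference in timing centre thus rested on the choice of matching, while in both sets a larger part was highest at S1–4 and a smaller part at S24–30 than among the members. These are descriptions, and no test of the difference was made.

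**Figure D3:**
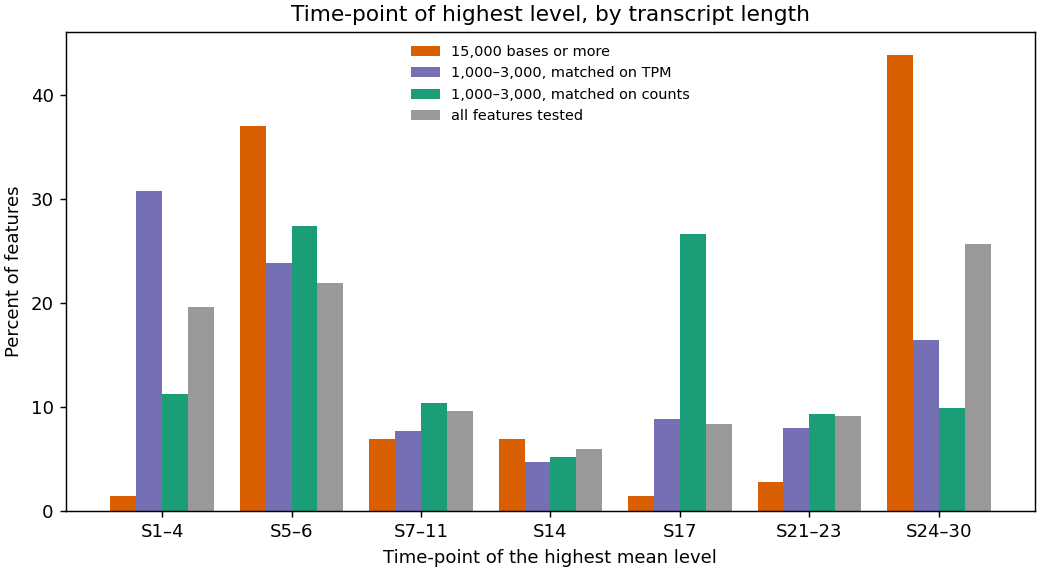
Percentage of features (y axis) whose mean level was highest at each time-point (x axis), for the 73 members, the 365 features of 1000 to 3000 bases matched on TPM, the 365 matched on counts, and all 33133 features tested. Members have few genes highest at S1–4 (1.37%) and S17 (1.37%) and most at S5–6 (37.0%) and S24–30 (43.8%).

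From S1–4 to S5–6 the measured level of long transcripts increased in these poly-A selected libraries. Coverage along a transcript was not measured, so whether long transcripts were captured equally well at both time-points was not tested. By edgeR, with a log2 change of at least 1.5 and an adjusted p of at most 0.001, 20 of 73 rose (27.4%) and 1 fell (1.37%). Over all features 5.53% rose and 5.91% fell, and in the length class just under the members 21.2% rose and 1.42% fell. The median log2 change was 0.92 over members and 0.00 over all features, and 63 members had a value above 0. Among features matched on TPM, 7.12% rose and 11.8% fell, with a median of -0.14. Among those matched on counts, 8.49% rose and 18.9% fell, with a median of -0.15. The median log2 change was 0.00 in the class under 1000 bases. Above that class it went up with length, from -0.09 at 1000–3000 bases through 0.12 in the class above it (up to 6000 bases), 0.43 in the next (up to 10000 bases) and 0.71 in the class just under the members. In the 39 members without shorter transcripts, 12 rose, none fell, and the median was 0.95. The number of calls depended on scaling. S1–4 libraries had the highest TMM factors (1.33 and 1.35, beside 0.95 and 0.97 at S5–6), and with total counts in place of TMM 9 members rose and 1 fell. The median of all features was then -0.36 and that of members 0.45, a gap of 0.81. With the size factors of DESeq2 these medians were 0.10 and 1.13, a gap of 1.03.

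**Figure D4:**
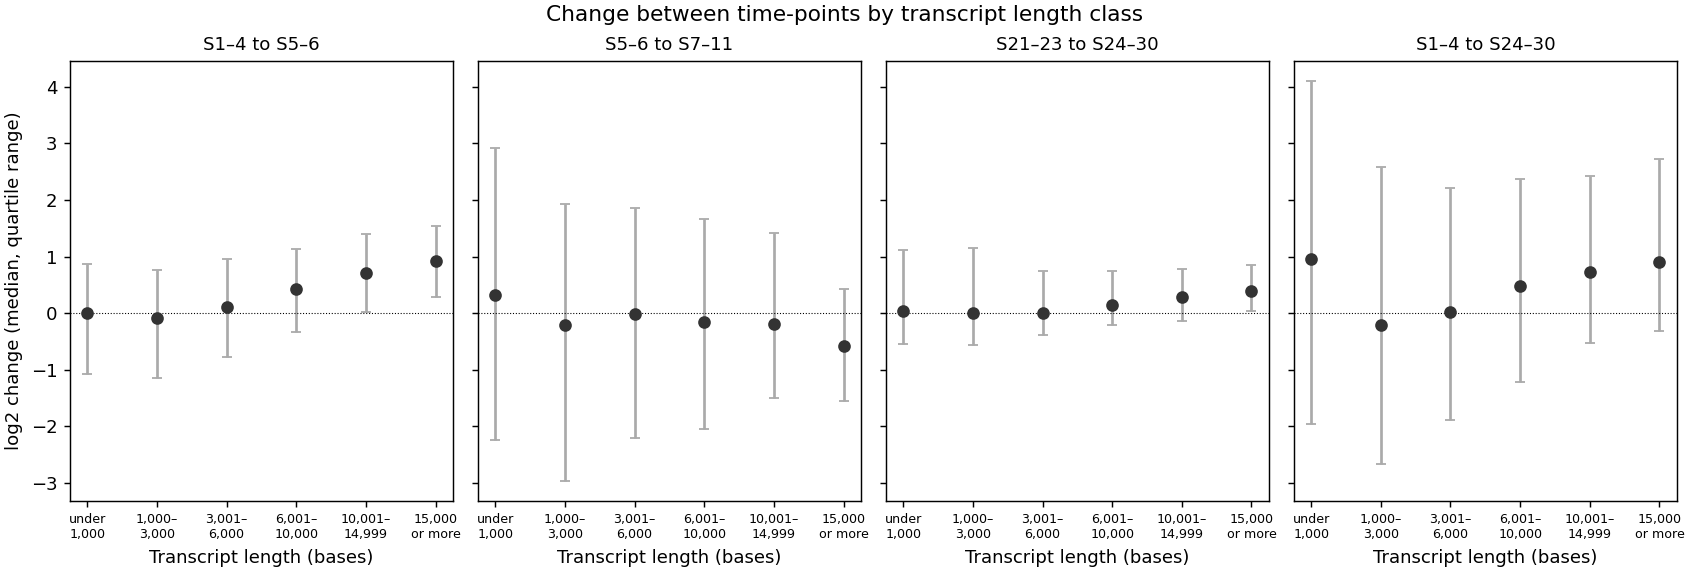
Log2 change of features by transcript length class (x axis, bases) in 4 comparisons. Points are medians over the features of a class and bars their quartile range, so they show the spread between genes and not the error. From S1–4 to S5–6 the median is 0.00 under 1000 bases and runs from -0.09 at 1000–3000 bases to 0.92 at 15000 bases or more.

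The largest called rise of this step was that of TRINITY_GG_48674_c0_g1, which has 1 long transcript of 16197 bases. It was at 81.0 and 89.9 CPM at S1–4 and at 619 and 654 CPM at S5–6, a log2 change of 2.90 ± 0.15 (SE, adjusted p = 1.36e-07 by edgeR). It then stood at 222 and 234 CPM at S7–11, 65.7 and 71.5 at S14, and 8.50 and 11.8 at S24–30. The S5–6 libraries were far above all others, and the falls from S7–11 to S14 (log2 change -1.73 ± 0.14) and from S21–23 to S24–30 (-2.46 ± 0.15) passed the test. The first of these falls missed the threshold for all transcripts of the gene together (-1.07).

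TRINITY_GG_40219_c0_g1, with 2 long transcripts of up to 19095 bases, rose nearly as much over this step. Its libraries were at 40.7 and 40.4 CPM at S1–4 and at 249 and 250 CPM at S5–6, a log2 change of 2.62 ± 0.03 (adjusted p = 5.88e-11 by edgeR). It fell to 70.1 and 71.7 CPM at S7–11 and stood at 422 and 434 CPM at S21–23, its highest point, with 384 and 386 CPM at S24–30. On the CPM scale it had a first high at S5–6 and a second, larger one at S21–23. In TPM its means were 17.04 at S5–6, 15.43 at S21–23 and 21.25 at S24–30, so that S24–30 was highest and S21–23 was below S5–6.

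The gene with the longest transcript of all, TRINITY_GG_130270_c1_g1 with 26051 bases, was at 119 and 117 CPM at S1–4 and 660 and 678 CPM at S5–6 (log2 change 2.51 ± 0.04, adjusted p = 1.4e-10 by edgeR). It kept 610 and 610 CPM at S7–11 and fell to 209 and 216 CPM at S14 (log2 change -1.52 ± 0.04). At the library scaling of all 14 libraries this fall was just under the size threshold without replicate 1 of S14 (-1.497). By S24–30 it was at 79.3 and 86.3 CPM, below its level at S1–4. In the 6 libraries up to S7–11 all its reads were put on the transcript of 26051 bases, and a transcript of 23739 bases was listed at 0. From S14 on this second transcript had 2453 to 4727 reads, and it held more than the first in all 6 libraries from S17 on.

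The single member that fell from S1–4 to S5–6 was TRINITY_GG_116807_c0_g1. Its long transcripts were at 62.2 and 76.4 CPM at S1–4, 16.8 and 27.4 at S5–6, and 75.6 and 78.7 at S7–11 (log2 changes -1.65 ± 0.18 and 1.80 ± 0.18, adjusted p = 4.19e-05 and 1.08e-05 by edgeR). The fall missed the threshold without replicate 2 of S1–4 (-1.497), without replicate 1 of S5–6 (-1.34), with DESeq2 (-1.45) and for all transcripts of the gene together (-1.09). The later rise missed it without replicate 1 of S5–6 (1.496), with DESeq2 (1.38) and for the whole gene (1.15).

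From S5–6 to S7–11, the step with the most changes in the transcriptome, 10 members rose and 19 fell, 13.7% and 26.0%, beside 21.3% and 19.2% of all features. The median log2 change was -0.57 over members, -0.45 over features matched on TPM and 0.76 over those matched on counts. The S5–6 to S7–11 split leaned further to falls with the size factors of DESeq2, where 7 rose and 25 fell, and with all transcripts of the genes, where 8 rose and 26 fell. In the members without shorter transcripts 5 rose and 14 fell, with a median of -0.90.

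The deepest fall was in TRINITY_GG_58977_c0_g1, with 4 long transcripts of up to 18772 bases. Its level was 80.7 and 81.9 CPM at S1–4 and 80.6 and 85.7 at S5–6, and then 2.20 and 2.44 at S7–11 (log2 change -5.16 ± 0.07, adjusted p = 8.05e-12 by edgeR). It stayed at 0.949 to 1.32 CPM in the libraries of S14 and S17, reached 8.06 and 8.28 CPM at S21–23, and stood at 157 and 155 CPM at S24–30. The rises into S21–23 (log2 change 2.65 ± 0.07) and into S24–30 (4.26 ± 0.07) both passed the test. The transcripts of this gene were thus present in the early embryo, nearly gone in the middle and most abundant at the end.

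TRINITY_GG_134677_c2_g1, with 1 long transcript of 15833 bases, had the sharpest high at S5–6, 14.6 times the mean of its other time-points. It was at 83.7 and 80.6 CPM at S1–4, 402 and 408 at S5–6, and 38.9 and 37.6 at S7–11. The rise (log2 change 2.30 ± 0.14) and the fall (-3.40 ± 0.14, adjusted p = 1.24e-08 by edgeR) both passed, and from S17 on the libraries were at 5.42 to 9.89 CPM. TRINITY_GG_94395_c0_g1, among the 5 members with the highest mean TPM, followed a like course with 565 and 566 CPM at S5–6. Its other libraries were between 97.3 and 176 CPM, and its log2 changes were 2.02 ± 0.03 up and -2.41 ± 0.03 down.

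The largest rise into S7–11 was in TRINITY_GG_135176_c0_g1, whose long transcripts were at 11.1 to 15.6 CPM in the first 4 libraries and at 414 and 404 CPM at S7–11 (log2 change 4.76 ± 0.09, adjusted p = 3.46e-11 by edgeR). They fell to 135 and 133 CPM at S14 (-1.61 ± 0.08) and were at 22.4 and 21.1 CPM at S24–30. The fall missed the threshold for the whole gene (-0.76). Its shorter transcripts had 1524 and 1367 reads at S1–4, more than the long ones, were listed at 0 at S7–11, and had 6670 and 5932 reads at S14.

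TRINITY_GG_66359_c0_g1 had its high later. It was at 2.62 and 3.40 CPM at S1–4, 6.47 and 6.58 at S5–6, 88.4 and 92.8 at S7–11, and 285 and 290 at S14. The steps into S7–11 (log2 change 3.79 ± 0.10, adjusted p = 2.92e-10 by edgeR) and into S14 (1.67 ± 0.09, adjusted p = 5.85e-07) were both called. The second fell under the size threshold, to 1.43 or 1.44, when any 1 of the S14, S17 or S21–23 libraries was left out and the TMM factors were computed anew. With the library scaling kept it passed without any of the 14 libraries. It was at 262 and 267 CPM at S17 and 79.0 and 80.0 CPM at S24–30.

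TRINITY_GG_52218_c1_g1 showed the narrowest high at S7–11, 9.12 times the mean of its other time-points. Its long transcripts went from 11.2 and 12.5 CPM at S5–6 to 133 and 131 at S7–11 (log2 change 3.48 ± 0.17, adjusted p = 3.74e-08 by edgeR). They then fell to 33.6 and 31.6 at S14 (-2.02 ± 0.16) and 10.8 and 11.7 at S17 (-1.54 ± 0.16, adjusted p = 9.26e-05). The last of these was the only call from S14 to S17. It missed the adjusted p without replicate 1 of S17 (-1.55) or replicate 2 of S17 (-1.69), with a fold no smaller than reported. With DESeq2 it missed the size threshold (-1.48), as it did without replicate 1 of S14 when the library scaling was kept (-1.49). TRINITY_GG_36312_c0_g1, the gene with the second longest transcript at 25764 bases, rose from 17.1 and 18.0 CPM at S5–6 to 167 and 173 at S7–11 (log2 change 3.28 ± 0.06) and was highest at S24–30 with 504 and 508 CPM.

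The middle of embryogenesis brought few calls. From S7–11 to S14, 2 members rose and 4 fell, 2.74% and 5.48%, beside 2.76% and 1.97% of all features. The other rise of that step was in TRINITY_GG_32013_c0_g1, from 6.04 and 6.19 CPM to 35.3 and 33.5 CPM (log2 change 2.49 ± 0.07, adjusted p = 1.28e-08 by edgeR), on the way to 232 and 230 CPM at S24–30.

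From S14 to S17 no member rose and 1 fell, beside 0.658% and 0.697% of all features, by edgeR. At an unadjusted p under 0.05 and with no limit on size, 29 members were higher and 19 lower (39.7% and 26.0%, beside 15.9% and 17.4% of all features), and DESeq2 also called 0 rises. From S17 to S21–23, 4 members rose and none fell by edgeR, beside 1.15% and 0.589% of all features. At an unadjusted p under 0.05, 35 were higher and 12 lower (47.9% and 16.4%, beside 14.7% and 15.3% of all features), and DESeq2 called 5 rises and 0 falls. The changes of the middle steps were mostly under the size threshold. The shares at an unadjusted p under 0.05 depend on read counts, and no share of features matched on counts is given beside them. The median level was 93.2 CPM over members and 2.61 CPM over all features.

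The members called into S21–23 went on to larger levels. TRINITY_GG_40598_c0_g1, with 1 long transcript of 18466 bases, was between 1.21 and 5.44 CPM in the first 10 libraries and reached 24.5 and 23.5 CPM at S21–23 (log2 change 2.48 ± 0.14, adjusted p = 2.04e-06 by edgeR). It stood at 419 and 433 CPM at S24–30 (log2 change 4.15 ± 0.14).

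From S21–23 to S24–30, 7 members rose and 1 fell, 9.59% and 1.37%, beside 6.65% and 4.08% of all features. Of the features matched on TPM 11.8% rose and 7.40% fell, and of those matched on counts 6.03% and 13.7%. In the length class just under the members 12.5% rose and 1.18% fell. The members' share of rises was thus above that of all features and below those of the TPM-matched features and of this class. The median log2 change was 0.39 over members and 0.03 over all features, and 56 members had a value above 0. Over the matched features the median was 0.00 by TPM and -0.44 by counts. Without replicate 1 of S24–30, 2 members fell. Of the 7 rises, 6 were in members without shorter transcripts.

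The largest change in the whole set was in TRINITY_GG_26338_c0_g1, with 2 long transcripts of up to 16933 bases and none shorter. It was nearly silent up to S21–23, with 0.0372 to 0.689 CPM in the first 12 libraries, and stood at 677 and 681 CPM in those of S24–30. The last step was a log2 change of 9.99 ± 0.43 (adjusted p = 5.88e-08 by edgeR), and the S24–30 mean was 7308 times the lowest time-point mean. TRINITY_GG_121964_c0_g1 rose in the same step from 8.90 and 9.07 CPM to 304 and 319 CPM (log2 change 5.12 ± 0.05, adjusted p = 1.36e-11). It also had a small high at S5–6 with 61.1 and 63.9 CPM, from which it fell to 12 and 11.6 CPM at S7–11 (-2.40 ± 0.05).

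Of the 73 members, 40 were called in at least 1 of the 6 adjacent steps (54.8%) and 33 in none, beside 49.0% of all features called in at least 1. Of the features matched on TPM 74.5% were called in at least 1, and of those matched on counts 75.3%.

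Across the whole time course, from S1–4 to S24–30, 31 members rose and 4 fell, 42.5% and 5.48%, beside 26.0% and 20.1% of all features. In the length class just under the members 38.7% rose and 13.4% fell, with a median log2 change of 0.73. The median log2 change was 0.90 over members and 0.32 over all features, -1.02 over features matched on TPM and -0.07 over those matched on counts. For the whole genes, with the library scaling kept, 27 rose and 6 fell. The counts moved with scaling, since with TMM factors computed anew on whole genes 22 rose and 9 fell. In the members without shorter transcripts, where the whole gene and its long transcripts hold the same reads, 20 of 39 rose, 1 fell, and the median was 1.55. TRINITY_GG_100505_c0_g1, with 1 long transcript of 20861 bases, rose from 108 and 108 CPM to 849 and 867 CPM (log2 change 3.00 ± 0.03, adjusted p = 2.29e-12 by edgeR). It had a first high at S5–6 of 349 and 352 CPM and a low at S7–11 of 186 and 190 CPM. TRINITY_GG_81408_c0_g1 had a like pair of highs, with 391 and 387 CPM at S5–6, 131 and 131 at S7–11 and 484 and 497 at S24–30, and rose by a log2 of 2.20 ± 0.03 overall. Its calls into and out of S5–6 (1.86 and -1.58) missed the size threshold with total counts (1.39 and -1.42).

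Few members were high at S1–4. On the CPM scale TRINITY_GG_69448_c0_g1 was the only one highest there, with 187 and 191 CPM. It was lowest at S7–11 with 50.6 and 49.6 CPM, and came back to 132 and 138 CPM at S24–30, with no adjacent step past the size threshold. In TPM, TRINITY_GG_139553_c0_g1 was also highest at S1–4, with means of 13.2 there and 12.2 at S5–6. The only member highest at S17 in CPM, TRINITY_GG_104741_c0_g4, ranged from 40.1 to 81.8 CPM. Its S17 libraries at 81.8 and 81.7 CPM lay close to replicate 2 of S5–6 at 81.4 CPM. The CPM means of S5–6 and S17 differed by less than the spread of the S5–6 replicates. In TPM this gene was not highest at S17, with means of 6.79 at S5–6 and 3.38 at S17.

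The steadiest long transcripts were those of TRINITY_GG_7746_c0_g1, which was also the member with the highest mean TPM. They went from 250 and 225 CPM at S1–4 to 391 and 400 CPM at S21–23, a ratio of means of 1.67. The direction of this difference depended on the scale. In TPM they were at 23.4 and 21.4 at S1–4 and at 16.3 and 17.4 at S21–23. TRINITY_GG_145993_c2_g1 (ratio 1.68) and TRINITY_GG_4527_c0_g1 (ratio 1.79) came next. Their libraries were at 105 to 196 and at 60.1 to 112 CPM. TRINITY_GG_133660_c0_g1, the second highest in TPM, went from 184 and 188 CPM at S1–4 to 412 and 430 CPM at S24–30, a ratio of 2.26 with no call in any single step. Among the longest, TRINITY_GG_78431_c0_g1 (21450 bases) was at 125 to 267 CPM and TRINITY_GG_139553_c0_g1 (20799 bases) at 81.7 to 195 CPM, again with no call. The whole genes of the 3 steadiest were less steady, as TRINITY_GG_7746_c0_g1 had 542 CPM at S1–4 and 300 CPM at S7–11, and TRINITY_GG_4527_c0_g1 had 94.0 CPM at S1–4 and 198 CPM at S24–30.

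Within a gene, the balance of long and shorter transcripts changed between time-points. Of the 34 members with shorter transcripts, 29 were called by limma (adjusted p of at most 0.05 over 4289 genes and a range of at least 1 in the log2 ratio), beside 61.6% of all genes with transcripts in 2 or more length classes. In 2 of the 34 genes no library had a read on a shorter transcript. Both were called, but their ratios followed only the counts of the long transcripts, so these 2 calls show no change of balance. Of the other 32, 27 were called. The share was 56.0% of the 3576 genes in which each side reached a mean of at least 10 normalized counts at 1 or more time-points. The mean part of a gene's reads that lay on its long transcripts had a median of 81.9% over the 34 genes and ran from 18.8% to 100%.

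The commonest course was a shorter transcript seen only in the first 2 time-points. In 14 of 32 genes (43.8%) the shorter transcripts had, per library, under 1% of their early reads from S7–11 on, beside 21.7% of 3576 genes in all. The reverse, shorter transcripts with almost no early reads, was seen in 2 of 32 (6.25%), beside 8.70%. In none of the 32 did the summed long transcripts have almost no reads after S5–6 or almost none before S7–11, beside 1.79% and 5.70% of the 3576 genes. In TRINITY_GG_7746_c0_g1 the shorter transcript had 17999 and 20193 reads at S1–4, 6949 and 7121 at S5–6, and 0 in each of the 10 later libraries. In TRINITY_GG_93896_c0_g1 it had 7148 and 7788 reads at S1–4, 8158 and 8882 at S5–6, and 0 in each later library. The part on the long transcript thus went from 29.9% at S1–4 and 24.2% at S5–6 to 100% at S7–11. TRINITY_GG_62880_c0_g1 went from 34.9% and 47.5% to 100% in the same way.

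**Figure D5:**
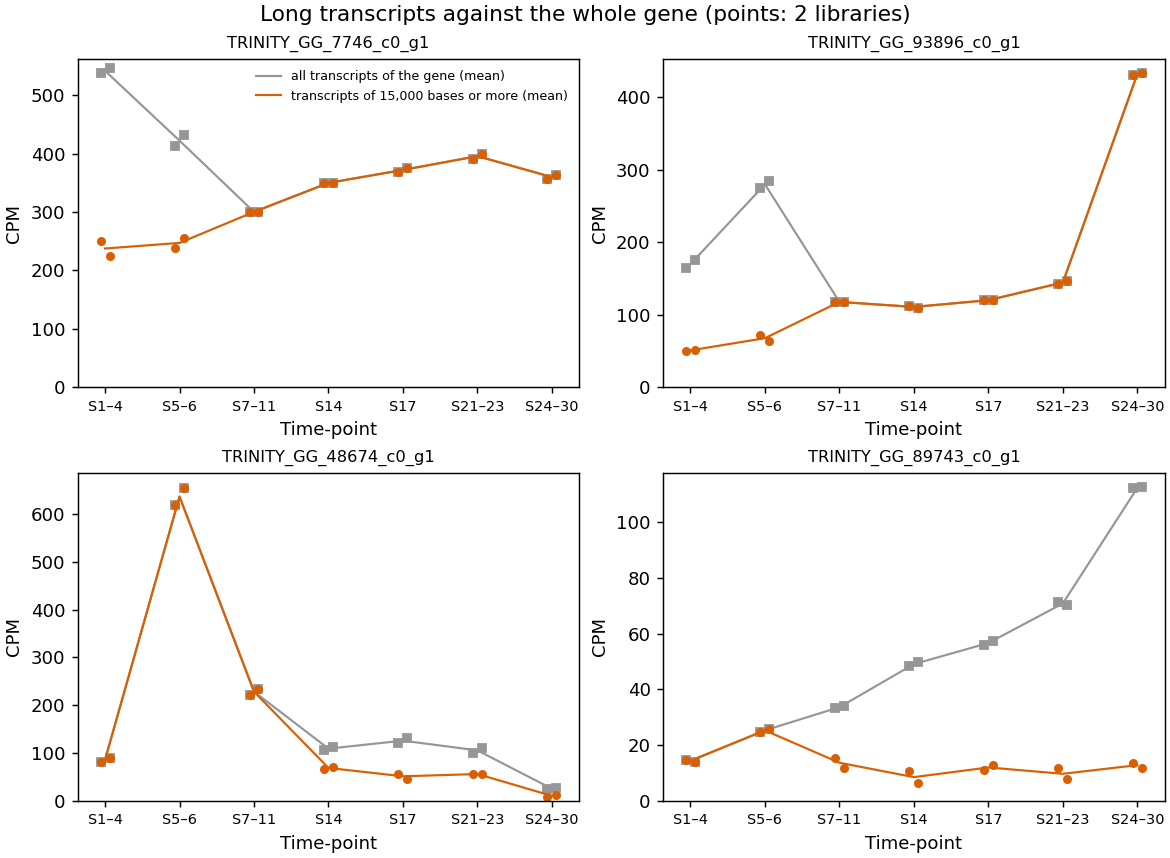
CPM (y axis) of the transcripts of 15000 bases or more (orange) and of all transcripts of the gene (grey) at each time-point (x axis) in 4 genes named by the isoform and stability rules. Points are the 2 libraries and lines the means. In TRINITY_GG_7746_c0_g1 and TRINITY_GG_93896_c0_g1 the curves differ at S1–4 and S5–6 and coincide from S7–11 on, and in TRINITY_GG_48674_c0_g1 and TRINITY_GG_89743_c0_g1 they part later.

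Such listings change the picture of some genes. The long transcript of TRINITY_GG_93896_c0_g1 rose from 50.4 and 51.0 CPM at S1–4 to 431 and 434 CPM at S24–30 (log2 change 3.09 ± 0.05 by edgeR, adjusted p = 2.43e-11), whereas its whole gene, at the same library scaling, was at 1.35 ± 0.04 and missed the size threshold. In TRINITY_GG_62880_c0_g1 the log2 change was 3.14 ± 0.06 for the long transcripts and 1.62 for the whole gene, both past the threshold. In both, the rise from S21–23 to S24–30 took place with all reads on long transcripts, from 142 and 147 to 431 and 434 CPM in TRINITY_GG_93896_c0_g1 (log2 change 1.58 ± 0.05).

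The opposite course was seen in TRINITY_GG_48674_c0_g1 and TRINITY_GG_89743_c0_g1. In TRINITY_GG_48674_c0_g1 all reads lay on the long transcript up to S7–11, and 62.9% at S14 and 40.2% at S24–30. In TRINITY_GG_89743_c0_g1 the part on long transcripts went from 100% at S1–4 and S5–6 to 40.7% at S7–11 and 11.4% at S24–30. Its long transcripts moved between 6.42 and 25.8 CPM, while the whole gene went from a mean of 14.4 CPM at S1–4 to 112 CPM at S24–30. The long and the shorter transcripts of a gene had their highest mean at the same time-point in 10 of 32 genes, and the shorter ones were highest at S1–4 or S5–6 in 21. Whether a 0 stands for a transcript that was absent or for reads given to another transcript of the gene was not tested.

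Among several long transcripts of a gene the same limit holds. In 43 genes with 2 or more, the lengths differed by a median of 456 bases and at most by 6077. The transcript with the most reads was the same at all 7 time-points in 21 of them. In 16 genes it differed between S1–4 and S24–30, and it was then longer at S24–30 in 11 and shorter in 2.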

How the data were processed

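Poly-A selected mRNA was sequenced by the authors from stranded TruSeq libraries (Illumina). Their reads were mapped with STAR (2.7.2b) to the genome Phaw 5.0, assembled into transcripts with Trinity, and assigned to these with salmon (0.14.1) in mapping mode. The deposited files give, for each transcript, its length, an expected count, which is an estimate and not normalized, and TPM, which the authors' program computed per length. The effective length was the length minus 250 in every library, so fragment length and coverage along a transcript were not measured. Libraries were grouped by the sample labels under the study's names for the time-points. The 28 small RNA libraries were not used.

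Expected counts were summed for each gene within 6 length classes (with upper limits of 999, 3000, 6000, 10000 and, for the class under the members, the base before 15000) and rounded to whole numbers. Features with a mean of at least 10 counts, normalized by DESeq2 (1.42.0) size factors, at 1 or more time-points were kept, 33133 of 35893. All 14 libraries entered 1 edgeR model (4.0.16, TMM scaling, quasi-likelihood F), and Benjamini-Hochberg adjustment ran over all features. A call required both an adjusted p no greater than 0.001 and a log2 change of 1.5 or more up or down. Standard errors were derived from the fold change and the F statistic. For the balance of long and shorter transcripts, log2 ratios of counts, with 0.5 added to both, were fitted in limma (3.58.1). Scripts were tested on simulated data. R (4.3.3) and matplotlib were used.

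Genes were named by rule: the 5 of highest mean TPM, the 5 with the longest transcripts, up to 2 of the largest called rises and falls in each adjacent step, the sharpest high of each time-point, the 2 largest changes of isoform balance in each direction, and the 3 steadiest. Members, lists and tests were chosen with earlier results of these data known. The labels do not say whether replicates came from separate pools of embryos, so p-values measure the spread between these libraries, which may be technical. Replicate libraries differed by more than sampling noise, with a chi-square over its degrees of freedom of 6.05 to 33.9. Alternatives were other scalings, DESeq2, no filter, whole genes, single transcripts, other length limits and matchings, and leaving out each library. Whole-gene values of single genes in the text use the library scaling of the reported fit.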

Additional observations from a re-analysis of the deposited data

How the results depend on the processing

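Of 51 called changes of single named genes, none changed direction under the alternatives run for single genes. These were other scalings, DESeq2, no filter, whole genes, the replicate number as a block and leaving out each library. Single transcripts, other length limits and other matchings were not run for single named genes. DESeq2 (as a test or for its size factors) and total counts each left 48 of them past the threshold, and leaving out a library 703 of 714. Rises from S1–4 to S5–6 (20 as reported) were 9 with total counts. Falls from S1–4 to S5–6 (1) were 0 with DESeq2 size factors, the DESeq2 test, whole genes and single transcripts, and falls from S14 to S17 (1) were 0 with both uses of DESeq2. TMM factors changed with the set of features and libraries. Computed anew on whole genes, they moved the median of all genes from S7–11 to S14 to -0.20. The fits on whole genes and single transcripts were therefore also run with the reported library scaling, an alternative added after the data were seen. Whole genes then left 46 of the 51 past the threshold, and 44 with new factors. Rises from S7–11 to S14 (2) were 2 with the scaling kept and 1 with new factors, falls from S7–11 to S14 (4) 2 and 3, and falls from S1–4 to S24–30 (4) 6 and 9. With single transcripts, under both scalings, falls from S7–11 to S14 were 2, and falls from S1–4 to S24–30 were 14 with new factors and 15 with the scaling kept. Leaving out each library in turn gave 0 to 1 falls from S1–4 to S5–6, 1 to 3 rises from S7–11 to S14, 0 to 1 falls from S14 to S17, 1 to 2 falls from S21–23 to S24–30, and 25 to 31 rises from S1–4 to S24–30. With the scaling kept, 707 of 714 named changes passed.

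The median timing centre of members minus matched features (0.62) was 0.084 with matching on counts, 0.95 with 1 feature for each member, 0.30 against all features of 1000 to 3000 bases, 0.66 with total counts, 0.71 on the deposited TPM, 0.66 at a minimum length of 12000 bases and 0.40 at 20000 bases. Leaving out a library gave 0.59 to 0.64. The percentage of members highest at S1–4 or S5–6 (38.4%) was 45.2% with DESeq2 size factors and on the deposited TPM, 36.7% at 12000 bases and 33.3% at 20000 bases, where 6 genes were left, and 38.4% to 43.8% when a library was left out. The ratios of the members' share of a library, 1.99 for S5–6 over S1–4 and 2.37 for S24–30 over S21–23, were 1.63 and 1.88 as shares of counts.

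Replicate numbers did not pair the libraries. Differences between replicates correlated across features at -0.06 to 0.38 between time-points, above 0.1 in 1 of 21 pairs. With the replicate number as a block, the counts of members that rose or fell were the same as without it in each comparison, such as 20 and 1 from S1–4 to S5–6. The test of isoform balance, restricted after the data were seen to genes with reads on both sides, called 56.0% of 3576 genes.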
